A study of Mus musculus with 8 samples.

Results

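The insulin-like growth factor (IGF) system was examined in astrocytes sorted from the mouse spinal cord, through 10 genes that encode its ligands (Igf1, Igf2), its receptors (Igf1r, Igf2r) and its binding proteins (Igfbp2 to Igfbp7). The family was chosen by a measured value, the difference in Igfbp4 messenger RNA between control astrocytes and astrocytes lacking the potassium channel Kir4.1. That contrast is therefore given as a description for all 10 genes, and whether a member passed the threshold of the fit over all genes supports nothing about the family. The 10 genes were matched by Ensembl identifier among 39179 genes in the count tables, and all 10 were present.

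Both groups came from mixed Swiss-Webster mice at postnatal days 12 to 14, and every animal carried the Aldh1l1-GFP reporter, which marks astrocytes with green fluorescent protein. The controls were cre-negative, are titled WT, and keep the numbers of their titles here (control S1, control S2, control S6 and control S7). The conditional knockouts carried floxed Kir4.1 alleles together with Aldh1l1-cre, so regulatory elements of the astrocyte gene Aldh1l1 drive both the cre and the reporter used for sorting. Their libraries are cKO S3, cKO S4, cKO S5 and cKO S8, and single values are always listed in this order, by rising number within each group. The design gives 4 biological replicates per group, without saying whether a library holds 1 animal or several. Meninges were stripped from the cord, the tissue was digested with papain, GFP-positive cells were sorted, and the NuGEN RNA-Seq V2 kit turned their total RNA into cDNA.

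IGF1 and IGF2 are small secreted proteins related to insulin. Both activate the receptor tyrosine kinase IGF1R, which signals through insulin receptor substrates to PI3K, AKT and mTOR, while IGF2R, the cation-independent mannose 6-phosphate receptor, takes IGF2 into the cell for degradation and has no kinase. The IGF-binding proteins hold the ligands outside cells, prolong their life and limit or direct their access to the receptor, until proteases such as PAPPA, which cuts IGFBP4, release them. Astrocytes are a known source of IGFBP2 in the nervous system, whereas meningeal cells, blood vessels and microglia are known sources of other parts of the system.

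The libraries held between 13892736 and 25065686 reads assigned to genes. Values below are CPM, the reads of a gene per 1000000 gene reads of its library after TMM scaling, unless a length correction is named. Kcnj10, which encodes Kir4.1 (chromosome 1, 172341210 to 172374085, GRCm38), stood at 1820.1 ± 468 CPM in controls and 34.0 ± 4.64 CPM in knockouts (SD, n = 4 each). The log2 fold change was −5.74 and the groups did not overlap. The summed level of 12 astrocyte markers was 16980.0 to 25059.7 CPM in controls and 19761 to 24255 CPM in knockouts. Fibroblast and meningeal markers differed widely between libraries of the same group. Decorin (Dcn), Col3a1 and Lum, which define such cells, were at 0 in control S1, cKO S4 and cKO S5, whereas control S6 held 174 CPM of Dcn and 98.0 CPM of Col3a1. Of the 11 genes on that list, 4 to 10 were detected in each control and 5 to 10 in each knockout, Col1a2 in all 8 libraries. All gene positions below are GRCm38, and no other annotated gene overlaps a member unless one is named.

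The promoters of 3 binding protein genes are shown because Igfbp4 and Igfbp2 are the members whose groups of libraries did not overlap, and Igfbp5 is the close genomic neighbour of Igfbp2. Igfbp2 (chromosome 1, 72824503 to 72852474, plus strand) and Igfbp5 (chromosome 1, 72857932 to 72874884, minus strand) lie tail to tail with 5457 bp between their ends. Igfbp4 occupies bases 99041244 to 99054392 of chromosome 11, plus strand. The sequences are the RefSeq windows on GRCm38.p6 from 250 bases before to 50 bases after the start site, on the gene's own strand, and all 10 members had such a window (14 windows, since Igf2 and Igfbp2 have several starts). Capitals mark matches on either strand to 1 of 5 motifs: the TATA box core TATAAA, the GC box core GGGCGG, the CCAAT box, the forkhead core TGTTTAC and the E-box CACGTG.
Igfbp4, chr11:99040994-99041293, plus strand: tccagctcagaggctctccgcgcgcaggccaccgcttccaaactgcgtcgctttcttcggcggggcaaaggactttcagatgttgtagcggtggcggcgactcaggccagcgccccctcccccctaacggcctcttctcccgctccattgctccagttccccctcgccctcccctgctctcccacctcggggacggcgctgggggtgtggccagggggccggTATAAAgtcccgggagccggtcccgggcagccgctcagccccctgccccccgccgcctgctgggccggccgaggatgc
Igfbp2, chr1:72824230-72824529, plus strand: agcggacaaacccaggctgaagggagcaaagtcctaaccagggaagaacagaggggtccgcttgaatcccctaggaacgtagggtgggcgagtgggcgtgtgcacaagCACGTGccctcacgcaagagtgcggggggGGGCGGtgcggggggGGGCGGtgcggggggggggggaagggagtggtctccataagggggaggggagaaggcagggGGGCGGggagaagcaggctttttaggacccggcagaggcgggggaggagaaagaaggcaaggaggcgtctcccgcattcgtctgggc
Igfbp5, chr1:72874816-72875115, minus strand: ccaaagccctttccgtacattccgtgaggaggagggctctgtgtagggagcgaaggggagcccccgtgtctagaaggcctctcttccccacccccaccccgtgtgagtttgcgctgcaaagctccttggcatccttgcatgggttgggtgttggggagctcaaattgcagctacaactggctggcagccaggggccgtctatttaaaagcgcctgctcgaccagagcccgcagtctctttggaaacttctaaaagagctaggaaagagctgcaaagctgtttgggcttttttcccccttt
The Igfbp4 window held TATAAA starting 28 bases upstream of the start site, and no other of the 5 motifs. TATAAA occurred in 13.6% of 32851 promoter windows of the same length. The Igfbp2 window held GGGCGG starting 113, 98 and 37 bases upstream, and CACGTG starting 142 bases upstream, and lacked TATAAA. Of the 2 Igfbp2 windows it is the one nearer the annotated gene start, and the other held none of the 5 motifs. The string GGGCGG was present in 35.7% of all windows and CACGTG in 7.15%. None of the 5 letter strings occurred in the Igfbp5 window, which was 56.3% G and C against 71.3% in Igfbp4 and 67.0% in Igfbp2. CCAAT, found in 37.4% of all windows, and TGTTTAC, found in 3.65%, were in none of the 3. These matches are descriptions of the letters only, and binding was not measured.

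The ligand genes were sparse and irregular. Igf1 (chromosome 10, 87858265 to 87937042, plus strand) was at 0.887, 0.728, 10.0 and 0.900 CPM in the 4 controls, and at 3.78, 2.04, 0 and 2.57 CPM in the 4 knockouts. Control S6 held 182 of the reads, more than any other library, and cKO S5 held 0, which at a limit of 3 counts allows up to 0.171 CPM. The groups overlapped, and the log2 fold change was −0.58 (standard error, SE, 1.10). Igf1 is covered on the opposite strand by Igf1os, with no shared exon.

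Igf2, an imprinted gene on the minus strand of chromosome 7 (142650766 to 142666816), varied more. It was at 0.127, 0.582, 31.0 and 2.94 CPM in the 4 controls, and at 3.78, 0.317, 8.49 and 7.41 CPM in the 4 knockouts. The highest library was control S6 and the lowest control S1, 244-fold apart, so both extremes of the range came from the control group and the groups overlapped. The log2 fold change was −0.80 with an SE of 1.18. The within-group SD of Igf2 on the log2 CPM scale was larger than that of 99.9% of the genes tested, and that of Igf1 larger than that of 99.2%. Igf2 shares 3596 exon bases with Gm49394, a same-strand gene model without a row in the count tables, so its reads carry that uncertainty, and 98 exon bases with Igf2os on the opposite strand. Control S6 was also the library with the highest fibroblast marker level. Correlations of the ligand genes with that level, and a fit with it as a covariate, are given below. The part of such cells in the ligand values was not tested. In cKO S5 Igf2 was at 8.49 CPM, Dcn, Col3a1 and Lum at 0, Col1a1 at 3.13 CPM and Col1a2 at 74.9 CPM.

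The receptor genes were steadier. Igf1r (chromosome 7, 67952827 to 68233668, plus strand), the signalling receptor, was at 31.4, 26.8, 40.6 and 20.5 CPM in the 4 controls, and at 33.2, 43.3, 42.5 and 48.0 CPM in the 4 knockouts. Most knockout libraries lay above the controls, but cKO S3 lay below control S6, so the groups overlapped. Means were 29.8 ± 8.47 and 41.8 ± 6.17 CPM (SD, n = 4 each), and the log2 fold change was 0.49 (SE 0.23).

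Igf2r (chromosome 17, 12682406 to 12769664, minus strand), which clears IGF2 and also carries mannose 6-phosphate-tagged enzymes to lysosomes, was at 11.8, 9.17, 9.28 and 11.7 CPM in the 4 controls. In the 4 knockouts it was at 11.3, 13.2, 10.4 and 14.6 CPM. The groups overlapped, and the log2 fold change was 0.24 (SE 0.27). Igf2r was the least variable member, with a highest library 1.59-fold above the lowest and a within-group SD that exceeded only 7.89% of the genes tested. The antisense transcript Airn overlaps its body without sharing an exon, and whether the authors counted by strand is not given in the sources used here.

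Among the binding proteins, Igfbp4 had the highest log2 fold change of the 9 members tested. IGFBP4 is a secreted inhibitor of IGF action that PAPPA cuts, and it is also known to bind the Wnt co-receptor LRP6 and the Wnt receptor FZD8. Its CPM was 42.6, 42.9, 42.7 and 32.6 in the 4 controls, and 82.8, 111, 126 and 103 in the 4 knockouts. Every knockout library lay above every control, and cKO S3 was the lowest knockout. The means were 40.2 ± 5.09 and 105.7 ± 18.0 CPM (SD, n = 4 each), a ratio of 2.63 and a log2 fold change of 1.40 (SE 0.18). Counts behind these values ran from 590 to 2457 reads a library. In bulk RNA a change in the number of cells of a type and a change in RNA per cell cannot be told apart.

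Igfbp2, the most abundant member per length of exon, was at 145, 121, 111 and 143 CPM in the 4 controls, and at 159, 279, 308 and 252 CPM in the 4 knockouts. The groups did not overlap, but cKO S3 sat close to the controls and well below the other knockouts. The means were 130.2 ± 16.5 and 249.7 ± 64.8 CPM (SD, n = 4 each), a ratio of 1.92 and a log2 fold change of 0.94 (SE 0.20), which did not pass the threshold of the fit over all genes (adjusted p under 0.05 by the Benjamini-Hochberg method, from the quasi-likelihood test of edgeR). It passed in 1 of the 8 fits that each left out a library, the one without cKO S3, at a log2 fold change of 1.11.

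Igfbp5, whose protein binds extracellular matrix as well as IGFs, did not follow its neighbour. It was at 156, 42.9, 106 and 26.5 CPM in the 4 controls, and at 217, 65.6, 16.1 and 145 CPM in the 4 knockouts. Both the highest and the lowest library were knockouts, 13.4-fold apart, and the groups overlapped throughout (log2 fold change 0.42, SE 0.64). Its highest library, cKO S3, and its lowest, cKO S5, had the highest and lowest fibroblast marker level among knockouts (mean log2 CPM 1.50 and −1.65). The highest control was control S1, which had the lowest such level of the controls (−1.37). The part of fibroblasts or other cell types in these values was not tested.

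Igfbp3 (chromosome 11, 7206086 to 7213923, minus strand), the main carrier of IGFs in blood, was low. It was at 5.13, 2.26, 7.96 and 4.97 CPM in the 4 controls, and at 10.1, 5.62, 7.07 and 3.51 CPM in the 4 knockouts, with groups that overlapped (log2 fold change 0.37, SE 0.47). Igfbp7 (chromosome 5, 77349240 to 77408041, minus strand), a low-affinity IGF binder known from vessels, was at 7.48, 2.55, 7.25 and 11.9 CPM in the 4 controls. In the 4 knockouts it was at 6.95, 3.72, 5.36 and 9.25 CPM, and the groups overlapped (log2 fold change −0.21, SE 0.47). Igfbp7 shares 85 exon bases with Polr2b on the opposite strand.

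Igfbp6 (chromosome 15, 102144362 to 102149511, plus strand), which prefers IGF2, was all but undetected. It gave 1 read, in control S6 (0.0549 CPM), among 152223816 gene reads of the 8 libraries, and was at 0 in the other 7. A count of 0 allows up to 3 reads, or between 0.128 and 0.218 CPM depending on the library.

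**Figure D1:**
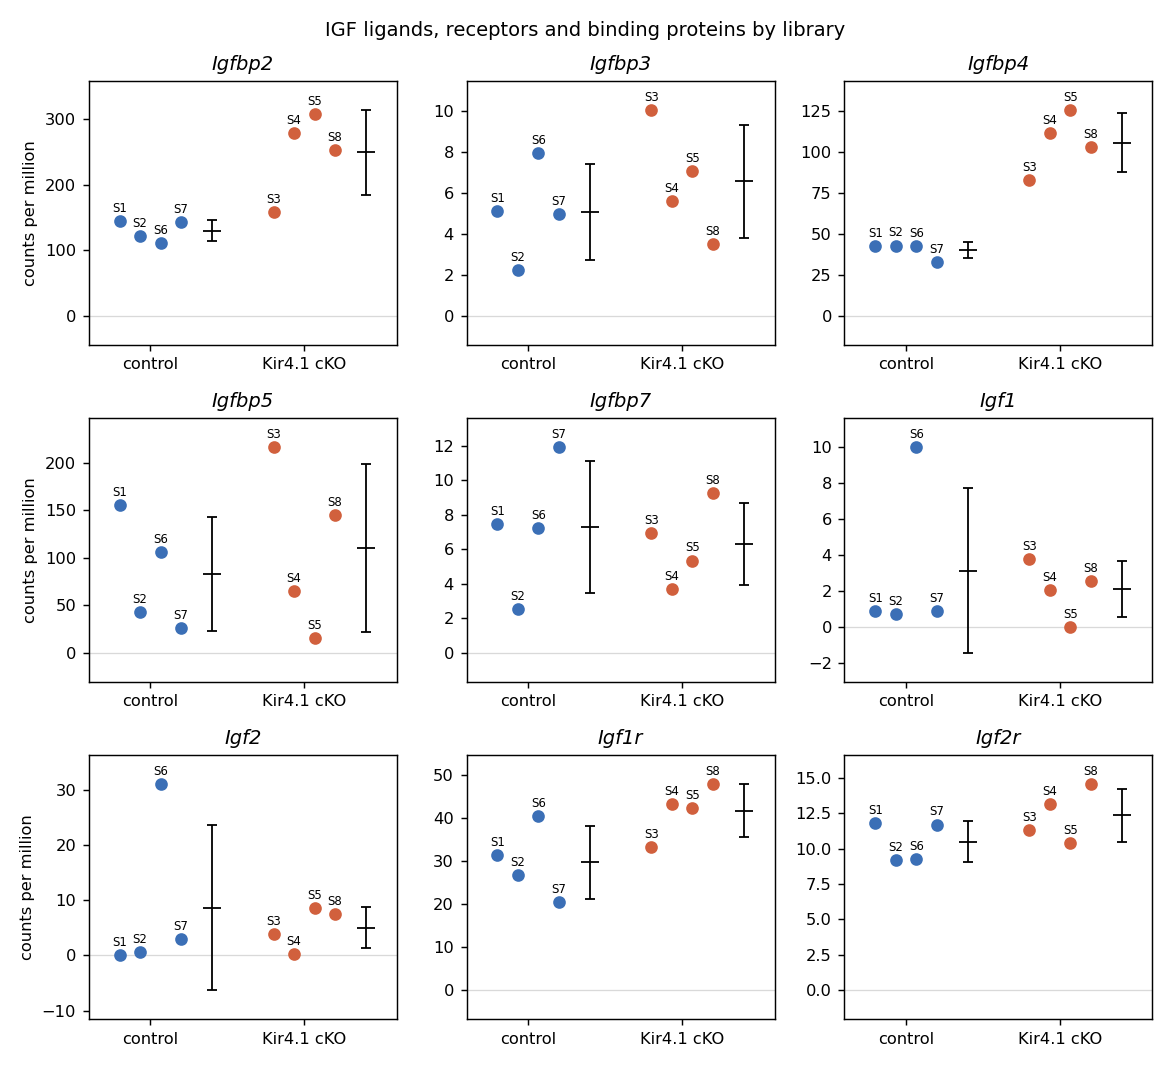
CPM of 9 IGF system genes in each library (points, labelled by library), with the group mean and SD beside them (n = 4 each); each panel has its own linear axis, and where an error bar reaches below 0 the SD exceeds the mean. Igfbp4 and Igfbp2 show knockout libraries all above the controls, whereas Igf1 and Igf2 are dominated by control S6.

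Of the 10 members, 9 passed the filter on low counts and Igfbp6 did not. Across the 14757 genes tested, 0.318% passed the threshold, 0.203% with higher and 0.115% with lower values in the knockout. Among the members 1 passed, Igfbp4, which was the reason for the choice, and 0 passed in the lower direction. The groups did not overlap for 2 members, Igfbp4 and Igfbp2, both higher in the knockout, beside 6.34% of all genes in either direction and 3.39% in that direction. The log2 fold change was above 0 for 6 members and below 0 for 3, with a median of 0.37, beside 48.4% of all genes above 0 and a median of −0.02. Since the rule used this contrast, nothing is read from these counts.

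The authors' deposited table, made with DESeq2, called 2 members at an adjusted p under 0.05, beside 2.87% of its 12314 genes with an adjusted p. In the authors' deposited table Igfbp4 stood 7 by adjusted p with a log2 fold change of 1.31, and Igfbp2 stood 112 with 0.86. The group means of the authors' deposited FPKM (fragments scaled by transcript length and depth) were 18.6 in controls and 59.3 in knockouts for Igfbp4, and 177 and 326 for Igfbp2.

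**Figure D2:**
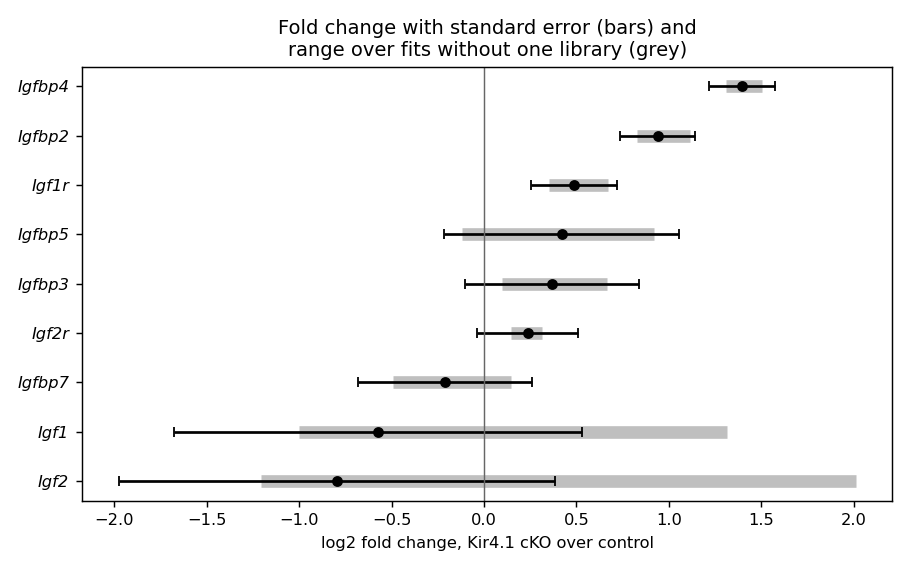
Log2 fold change of 9 members, knockout over control, from the edgeR fit (points) with its SE (bars), and the range over 8 fits that each left out 1 library (grey). The grey range runs from 1.31 to 1.50 for Igfbp4 and from 0.83 to 1.11 for Igfbp2, and includes 0 for Igfbp5, Igfbp7, Igf1 and Igf2.

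The direction of 4 members rested on single libraries. Without control S6 the log2 fold change of Igf2 turned from −0.80 to 2.01 and that of Igf1 from −0.58 to 1.32. Igfbp5 went from 0.42 to −0.12 without cKO S3, and Igfbp7 from −0.21 to 0.14 without control S7. None of these values passed the threshold. The log2 fold change of Igfbp4 ran from 1.31 to 1.50 over these 8 fits, and it missed the threshold without cKO S4, in a fit that called 4 genes in all.

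Levels were then ordered across genes per kilobase of exon (CPM per kb), since longer transcripts collect more reads. In controls the order was Igfbp2 at 70.5, Igfbp5 at 13.8, Igfbp4 at 9.11, Igfbp7 at 6.04, Igf1r at 1.77, Igfbp3 at 1.62, Igf2 at 1.51, Igf2r at 1.13, Igf1 at 0.316 and Igfbp6 at 0.0123 CPM per kb. Igfbp2 lay above Igfbp5 in all 4 control libraries, Igfbp7 above Igf1r in all 4, and Igf1 above Igfbp6 in all 4. The other neighbours were not separated in every library: Igfbp5 exceeded Igfbp4 in 2 of 4, Igf1r exceeded Igfbp3 in 2 of 4, and Igf2 exceeded Igf2r in 1 of 4, its mean resting on control S6. In knockouts Igfbp4, at 23.9 CPM per kb, stood above Igfbp5, at 18.5, in 2 of 4 libraries, and Igfbp2, at 135, stood above both in all 4.

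The binding protein genes together amounted to 122, 85.3, 96.3 and 101 CPM per kb in the 4 controls and to 149.7, 192, 205 and 193 CPM per kb in the 4 knockouts. Every knockout lay above every control, and the sum follows Igfbp2 and Igfbp4, which were chosen or seen to differ. Igfbp2 made up 70.2% ± 7.79 of the sum in controls and 72.1% ± 10.8 in knockouts (SD, n = 4 each), a difference smaller than its spread. Igfbp4 made up 9.17% ± 1.89 and 12.9% ± 0.794, and here the lowest knockout, 12.1% in cKO S8, lay above the highest control, 11.4% in control S2. Igfbp5 ranged from 4.38% to 21.4% in controls and from 1.31% to 24.1% in knockouts, with no separation of the groups. The ratio of Igfbp4 to Igfbp2 reads was 0.294, 0.354, 0.383 and 0.227 in the 4 controls and 0.522, 0.399, 0.408 and 0.408 in the 4 knockouts. The groups did not overlap, and cKO S3, where Igfbp2 was lowest among knockouts, had the highest ratio. Both the Igfbp4 share and this ratio are built from the values by which the family was chosen. Their separation between groups therefore supports nothing further.

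**Figure D3:**
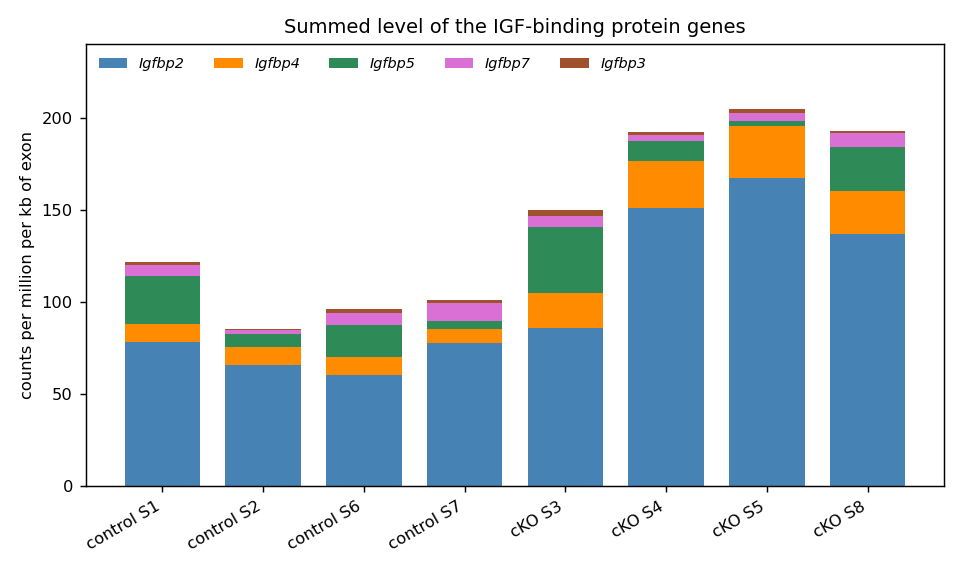
Summed level of 5 binding protein genes in each library, in CPM per kb of exon (stacked bars from 0; Igfbp6 is too low to draw). Igfbp2 is the largest segment in all 8 libraries, the Igfbp4 segment is taller in all 4 knockouts than in any control, and the Igfbp5 segment differs widely within each group.

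Within groups, correlations between members ran from −0.66, for Igfbp2 and Igf1, to 0.77, for Igfbp5 and Igf1, and were not tested. With group means removed, log2 CPM over the 8 libraries correlated at r = 0.58 between Igfbp2 and Igfbp4, 0.69 between Igfbp4 and Igf1r, 0.77 between Igfbp5 and Igf1, and −0.63 between Igfbp2 and its neighbour Igfbp5. These are descriptions over 8 libraries that share depth and scaling.

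Because several members are known products of non-astrocytic cells, member levels were set beside marker levels of 4 such cell types, over the 8 libraries with group means removed, for the 9 members with reads in most libraries. Of these 36 relations 0 had an adjusted p under 0.05 in the exact permutation test within groups (576 pairings, 2-sided, Benjamini-Hochberg over 36). The design largely fixes that count, since a single relation at the smallest p of these pairings adjusts to 0.0625. For Igfbp2 and the 11 fibroblast and meningeal markers, Pearson's r was −0.83 (exact permutation p = 0.00174, the smallest these pairings can give; adjusted p = 0.0625) and Spearman's rho −0.88 (exact permutation p = 0.00347, adjusted p = 0.125). Without cKO S5 and control S6, the libraries farthest from the median marker level, r was −0.80. In each group the library with the highest fibroblast marker level, control S6 and cKO S3, had the lowest Igfbp2. For Igfbp4 and the 10 endothelial markers r was −0.85 (exact permutation p = 0.0191, adjusted p = 0.344) and rho −0.74 (exact permutation p = 0.0747, adjusted p = 0.527), and r was −0.71 without cKO S4 and cKO S5. With the microglial markers r of Igfbp4 was −0.69 (exact permutation p = 0.0885, adjusted p = 0.567), and −0.08 without cKO S3 and cKO S5. For Igfbp7 and the mural markers r was −0.69 (exact permutation p = 0.0295, adjusted p = 0.354), and −0.25 without cKO S4 and control S2.

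For Igf2 and the fibroblast markers r was 0.63 (exact permutation p = 0.137, adjusted p = 0.567) and rho 0.52 (exact permutation p = 0.253, adjusted p = 0.691), with r = 0.68 without cKO S5 and control S6. For Igf1 r was 0.73 (exact permutation p = 0.0590, adjusted p = 0.531) and rho 0.79 (exact permutation p = 0.0451, adjusted p = 0.527), with r = 0.51 without those libraries. Igfbp5 had r = 0.44 with the fibroblast markers (exact permutation p = 0.309, adjusted p = 0.673) and 0.67 with the endothelial markers (exact permutation p = 0.148, adjusted p = 0.567). With microglial markers it was 0.65 (exact permutation p = 0.151, adjusted p = 0.567) and with mural markers −0.13 (exact permutation p = 0.819, adjusted p = 0.913). Without the 2 libraries farthest from each median level these were −0.01, 0.25, −0.01 and 0.03. The summed fibroblast markers ran from 110.0 to 583 CPM in controls and from 76.8 to 153 CPM in knockouts. The 583 CPM belonged to control S6, and the other controls lay between 110.0 and 195 CPM. Of the 6 tested genes 0 were called, with a median log2 fold change of −1.99. The list's mean log2 CPM was 0.631 ± 1.73 in controls and −0.254 ± 1.48 in knockouts (SD, n = 4 each, exact permutation p = 0.543, 2-sided). The 10 endothelial markers summed to 49.9 to 76.4 CPM in controls and 28.3 to 69.3 CPM in knockouts, the 10 microglial markers to 28.0 to 46.3 and 28.5 to 62.3 CPM, and the 7 mural markers to 31.0 to 52.4 and 36.4 to 41.6 CPM. As a mean over the list the endothelial level was 2.32 ± 0.342 in controls and 1.34 ± 0.818 in knockouts (log2 CPM, SD, n = 4 each, exact permutation p = 0.0857, 2-sided). The same permutation test gave p = 0.714 for the microglial list and p = 0.771 for the mural list. Of the markers of these 3 cell types, 0 were called, and their part in the values of Igfbp4 and the other members was not tested. Of 12 astrocyte markers 2 were called higher, Aqp4 and Aldh1l1, and 0 lower, beside 0.203% of all genes called higher. Elements of Aldh1l1 also drive the cre that only knockouts carry, and any part of that transgene in the Aldh1l1 values was not tested. Over the 12 the median log2 fold change was 0.06. Their mean log2 CPM was 9.57 ± 0.212 in controls and 9.70 ± 0.0841 in knockouts (SD, n = 4 each, exact permutation p = 0.371, 2-sided). The remaining lists had 0 genes called, and their median log2 fold changes were below 0 beside the higher Igfbp4. The median was −1.06 over 8 markers of oligodendrocyte precursors (exact permutation p of the list's mean log2 CPM = 0.2) and −0.67 over 9 of neurons (exact permutation p = 0.0571). It was −0.46 over 10 of oligodendrocytes (exact permutation p = 0.114), −0.68 over 4 of Schwann cells (exact permutation p = 0.886) and −0.42 over 4 of ependymal cells (exact permutation p = 0.514). The mean log2 CPM of the whole Schwann list was not lower in knockouts, at 1.22 ± 0.610 in controls and 1.25 ± 0.640 in knockouts (SD, n = 4 each). The part of these lists was not tested either. With the fibroblast marker level as a covariate, the log2 fold change of Igfbp4 was 1.34 and that of Igfbp2 0.77, beside 1.40 and 0.94 without it. In that fit it was 1.80 for Igf2 (adjusted p = 0.845, quasi-likelihood test of edgeR) and 0.61 for Igf1 (adjusted p = 0.944).

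**Figure D4:**
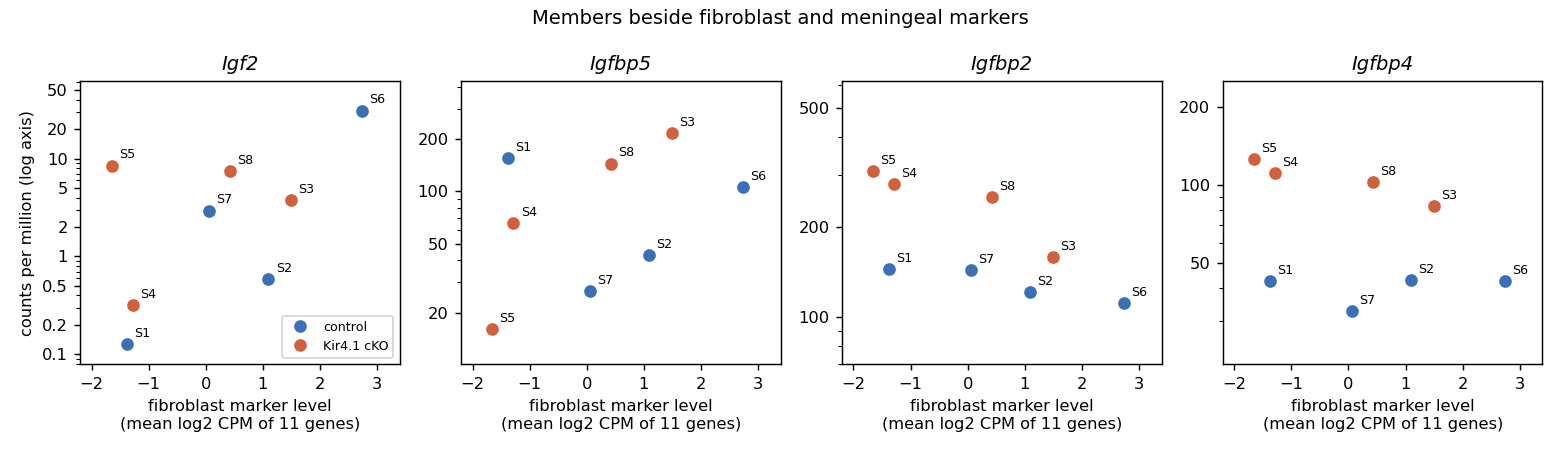
CPM (log axis) of Igf2, Igfbp5, Igfbp2 and Igfbp4 in each library against the mean log2 CPM of 11 fibroblast and meningeal marker genes (horizontal axis). Igfbp2 is lowest where the marker level is highest in each group (control S6 and cKO S3), Igf2 is highest in control S6, and all Igfbp4 points of the knockouts lie above those of the controls.

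The genes whose log2 CPM over the 8 libraries was most like that of Igfbp4, among 9576 genes with a mean of at least 5 CPM, were Fndc3b (r = 0.98), Slc38a1 (0.98), a glutamine transporter gene, Naprt (0.98), Tubb4b (0.98) and Egln3 (0.98), an oxygen-sensing prolyl hydroxylase gene. All 5 had higher values in knockouts, so these correlations carry the difference between the groups. With the group means removed the closest were Pcdhb17 (r = 0.96), Ramp2 (0.96), Shoc2 (0.96), Tmed3 (0.95) and Slc30a4 (0.95), none of which passed the threshold. Most like Igfbp2 in the same way were Arpc4 (r = 0.97), Ppa2 (0.96), Ndufa4 (0.96), Crtc3 (0.95) and Ints1 (0.95). Most like Igfbp7 were Dscaml1 (0.97), Mapt (0.97), Mettl4 (0.97), Mycl (0.96) and Eid1 (0.96), and most like Igf2 were Pcdhb19 (0.99), Zfp26 (0.98), Me3 (0.96), Synj1 (0.96) and Prdm4 (0.95). These are the highest r of 9576 genes over 8 libraries that share depth and scaling, and are given as descriptions.

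The genes around the members were read from 9 lists of 71 genes, of which 54 were tested. Only 1 gene passed, Akt2, with higher values in knockouts, beside 0.318% of all genes in either direction and 0.203% in that direction, and 53 did not pass (quasi-likelihood test of edgeR, adjusted by Benjamini-Hochberg). At an unadjusted p under 0.05 there were 3 higher and 1 lower. The groups did not overlap for 4 of the 54, beside 6.34% of all genes. The median log2 fold change over the 54 was 0.03, beside −0.02 for all genes, and 31 were above 0.

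Akt2 (chromosome 7, 27591552 to 27640826, plus strand) encodes the AKT kinase best known for insulin-stimulated glucose uptake, downstream of both IGF1R and the insulin receptor. It was at 42.7, 37.9, 51.2 and 42.2 CPM in the 4 controls, and at 79.5, 115, 169 and 119 CPM in the 4 knockouts. All knockouts lay above all controls, with cKO S3 lowest and cKO S5 highest, as for Igfbp4. Akt2 rose from 43.5 ± 5.55 to 120.7 ± 36.7 CPM (SD, n = 4 each), which is 1.47 on the log2 scale (SE 0.22, adjusted p = 0.0140). The call was lost without control S2 (adjusted p = 0.0627), without cKO S4 (0.0618) and with the fibroblast covariate (0.0587), at log2 fold changes of 1.41, 1.49 and 1.38. Over its 18 alternatives the adjusted p ran from 4.94e-07 to 0.135. Akt1, named after its values were seen like Lrp6 and Fzd8 below, had a log2 fold change of 0.18 (SE 0.22, adjusted p = 0.840).

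In the receptor arm, the insulin receptor gene Insr was at 121 ± 11.7 CPM in controls and 126 ± 18.5 CPM in knockouts (SD, n = 4 each; adjusted p = 0.940). The insulin genes Ins1 and Ins2 and the related receptor gene Insrr had 0 reads in all libraries. Of the 10 tested genes on the list of receptor substrates, adaptors and related proteins, 0 passed, with a median log2 fold change of −0.17. Irs1 had a log2 fold change of −0.32 (adjusted p = 0.630) and Irs2 one of 0.0037 (adjusted p = 0.998). In the PI3K, AKT, mTOR and FoxO arm 1 of 20 tested genes passed, Akt2, and the median was 0.10.

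Among the genes that act on the binding proteins, 0 of 5 tested passed, with a median log2 fold change of −0.42. Pappa, the protease that cuts IGFBP4, gave 9, 22, 65 and 32 reads in the 4 controls and 26, 34, 23 and 29 reads in the 4 knockouts, with overlapping groups and a log2 fold change of −0.42 (SE 0.69, adjusted p = 0.887). Pappa2, which cuts IGFBP3 and IGFBP5, was under the filter with 4, 5, 3 and 63 reads in the controls and 34, 2, 1 and 37 in the knockouts, in the same order. The stanniocalcins, inhibitors of these proteases, were also low: Stc1 gave 19 reads in all and was not tested, and Stc2 had a log2 fold change of −0.06 (SE 1.22, adjusted p = 0.992).

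Of 14 relatives of the binding proteins, which apart from the ligand-complex gene Igfals share the IGF-binding domain, 6 were tested and 0 passed, with a median log2 fold change of 0.30. Htra1, a secreted serine protease with such a domain, was abundant at 446 ± 208 CPM in controls and 554 ± 92.7 CPM in knockouts (SD, n = 4 each; adjusted p = 0.772). Igfbp1, the insulin-regulated binding protein of liver, had 0 reads in all 8 libraries. The Wnt co-receptor gene Lrp6, which encodes a binding partner of IGFBP4, was at 136 ± 7.57 CPM in controls and 174 ± 27.6 CPM in knockouts (SD, n = 4 each), with groups that did not overlap and an adjusted p of 0.466. Fzd8, the gene of the other partner on that list, was at 8.91 ± 4.16 and 8.98 ± 2.68 CPM (SD, n = 4 each), with overlapping groups and an adjusted p of 0.996.

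Of 7 genes for mannose 6-phosphate sorting, the lysosomal function of IGF2R, 0 passed, with a median log2 fold change of −0.09; M6pr, the smaller receptor of that pathway, had one of 0.15 (adjusted p = 0.860). H19, the noncoding gene imprinted opposite to Igf2, gave 0, 30, 110 and 0 reads in the 4 controls and 5, 0, 0 and 25 reads in the 4 knockouts, and was not tested. Control S6 was the highest library for H19, Igf2 and Igf1 alike. In cKO S5 Igf2 had 149 reads and H19 had 0.

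**Figure D5:**
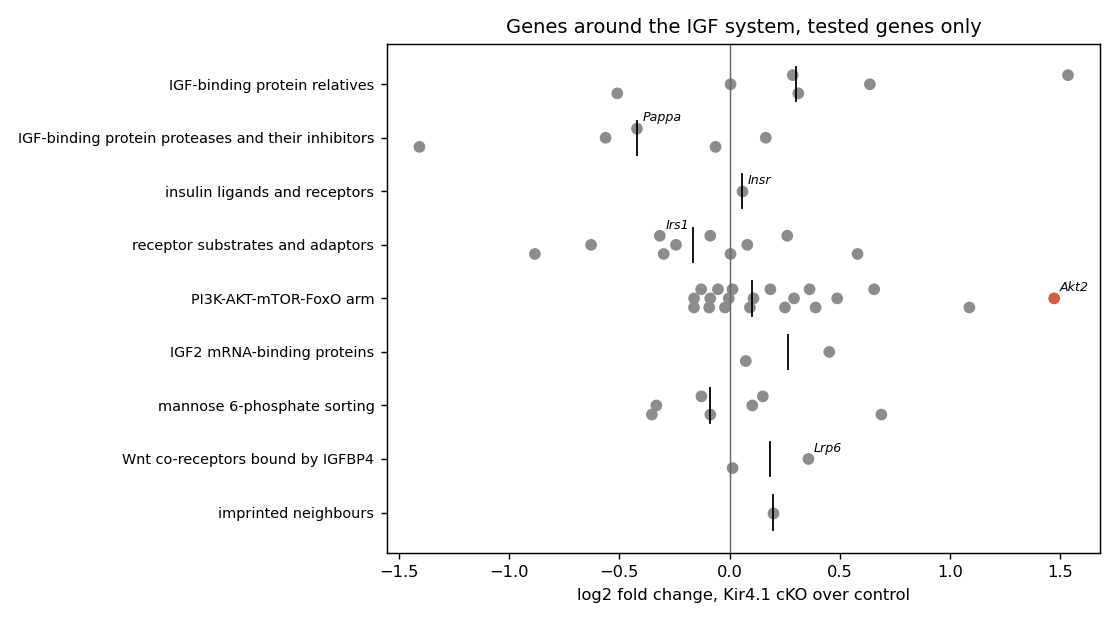
Log2 fold change, knockout over control, of the 54 tested genes around the IGF system, in 9 lists; points are genes, vertical bars the list medians, and orange marks an adjusted p under 0.05. Akt2 at 1.47 is the single orange point, and the list medians lie between −0.42 and 0.30.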

How the data were processed

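RNA was measured in 8 libraries of sorted spinal cord astrocytes, 4 control and 4 Kir4.1 knockout. The authors deposited raw counts per gene and library, a table of their own comparison and FPKM. Per the submitters' processing notes, the tools were FastQC 0.11.4, TopHat2 2.0.11, Bowtie2 2.2.3, HTSeq 0.6.1p1, DESeq2 1.14.1, Cuffnorm and Cufflinks 2.2.1, on GRCm38; the annotation release and the strand setting are not given in the sources used here. The summary lines of the deposited count tables, which name no gene, held 56.4% to 61.7% of the reads and were left out, and rRNA-like transcripts held 33.8% to 46.3% of the gene reads. The authors' deposited comparison gives group means as a normalised signal, a log2 fold change, its standard error and Wald statistic (score columns), and p-values; the group means equalled those recomputed from the counts. The deposited FPKM columns were used only as groups, because over 10826 genes only 3 of 8 columns matched best the library they are named after, while 8 of 8 matched best a library of their own group. No column of per-sample values was left unmapped.

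Counts were fitted with edgeR 4.0.16 in R 4.3.3 (quasi-likelihood test, TMM, filterByExpr, 14757 genes, Benjamini-Hochberg, threshold 0.05), without covariates or blocks; the common biological coefficient of variation was 0.473. CPM used TMM library sizes, and log2 CPM a prior count of 2. CPM per kb used the union of exons in GENCODE mouse release 21, in which 37693 of 39179 identifiers were found. Alternatives were other scalings, filters, DESeq2 1.42.0, limma 3.58.1 (voom, and log2 FPKM with pseudocounts of 1 and 0.1), a fibroblast marker covariate and leaving out each library. Correlations of members with markers used numpy 2.4.6, and the permutation test of marker levels between groups used scipy 1.17.1. The p-values set a difference or a correlation against the variation between libraries.

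The members, the gene lists around them and the marker lists were chosen with earlier results of these data known. Named were all 10 members, Kcnj10, listed genes past the threshold, 11 listed genes named whatever their p, and for 4 members the 5 genes with the most similar pattern; any other gene was named after its values were seen. Protein sequences were not used here.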

Additional observations from a re-analysis of the deposited data

Results flagged for a closer look

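In 24 groups of 4 libraries, 3 held a library set apart from the other 3 by more of the group's range than Dixon's limit at 95% allows for 4 values, where chance gives about 1 in 20, or 1.2. Igfbp4 was at 32.6 CPM in control S7, below 42.6 to 42.9 CPM in the other controls. Igf1 was at 10.0 CPM in control S6, above 0.728 to 0.900 CPM in the other controls. Igf2 was at 31.0 CPM in control S6, above 0.127 to 2.94 CPM in the other controls.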

How the results depend on the processing

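Against 47 genes called, the count was 87 with at least 1 count in any library, 84 with at least 10 counts in every library, 20 with the fibroblast covariate, 384 with DESeq2 and 4 to 45 when any single library was left out, the lowest without cKO S4 (control S1 30, control S2 14, control S6 16, cKO S5 24 and cKO S8 28). Library totals in place of TMM gave 62, of which 77.4% were higher in knockouts against 63.8%, and moved the median log2 fold change of all genes from −0.02 to 0.09. Members called numbered 2 instead of 1, with Igfbp2 added, under library totals, both other filters and DESeq2, and 0 to 2 when a library was left out (0 without cKO S4, 2 without cKO S3). Genes called in the lists around the members numbered 0 instead of 1 with the fibroblast covariate, and 0 to 1 when a library was left out (0 without control S2 and without cKO S4). The log2 fold change of Igfbp4 lay between 1.31 and 1.66 over 18 alternatives, from 1.31 to 1.50 when a library was left out, and was 1.66 with FPKM and a pseudocount of 0.1. It missed the threshold in 3 of the 18, without cKO S4 and with both FPKM fits. Igfbp2 lay between 0.77, with the fibroblast covariate, and 1.11, without cKO S3, and passed in 5 of 18. Igf2 took a positive log2 fold change in 5 of 17 alternatives, among them limma-voom (0.50) and both FPKM fits (0.83 and 1.47). Igfbp3, Igf1r and Igf2r kept a positive log2 fold change in all alternatives. With group means of FPKM, 5 of the 10 members kept their rank in the order of control levels. Akt2 also missed the threshold with both FPKM fits (adjusted p = 0.1097 and 0.135), and passed in 13 of 18. Scaling the correlations by library totals, chosen after seeing the data, gave 0 of 36 adjusted p-values under 0.05, a count that the number of pairings largely fixes. Igf1 and Igf2 had no value with at least 10 counts in every library, and Igfbp6, with 1 read, was given none. The causes were not tested. No paired analysis was possible because the labels name no pairs, and the library numbers run on across both groups. Depth limits Igf1, Igf2 and Igfbp6, at 0 to 564 reads a library, and counting intervals cover counting error only.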
